A study of Mus musculus with 3 samples.

Results

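The genes followed here are the 8 that write, copy and remove cytosine methylation in mouse DNA, namely the DNA methyltransferase genes Dnmt1, Dnmt3a and Dnmt3b, the cofactor genes Dnmt3l and Uhrf1, and the TET dioxygenase genes Tet1, Tet2 and Tet3. They were chosen by name. All 20 probe sets carrying 1 of these symbols in the platform annotation were read, out of 34945 probe sets with a single symbol that cover 18193 genes. Endoderm, mesoderm and epiblast were separated after enzyme treatment of the embryonic region of ICR embryos taken at day 7.5 of development (E7.5), and no treatment or mutation is named for any of them. Neuroectoderm and primitive streak were both kept in the epiblast sample. Total RNA from each layer (100 ng) went to 1 Affymetrix whole-genome mouse array, on which each transcript is read by a probe set made of several short oligonucleotides. How many embryos were pooled for an array is unknown here. With 1 array per layer, no difference has a replicate check and no p-value can be had.

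Cytosine methylation in mammals lies mostly on CG dinucleotides. DNMT3A and DNMT3B place it on unmethylated DNA, and DNMT3L, which has no catalytic activity of its own, stimulates both. After replication, UHRF1 binds the hemimethylated daughter strands and brings in DNMT1, which copies the mark. TET enzymes oxidise methylcytosine to hydroxymethylcytosine and further products, which are then lost by dilution or by base excision repair. In the mouse the genome is broadly demethylated before implantation and remethylated in the epiblast around the time of implantation, whereas extra-embryonic lineages keep a lower level.

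The values are linear array intensities. A floor was set at 80.6, the median intensity of the whole table, and a gene counted as detected where at least 1 layer exceeded it. Where a gene had several probe sets, the brightest (by mean log2 over the arrays) stood for it and the others are given beside it. A gene was called higher or lower between layers at a log2 difference of at least 1, which is 2-fold. The spread set beside each difference is the pooled standard deviation (SD) of the log2 difference between probe sets of the same gene, taken from 5536 genes that had more than 1 detected probe set. It was 0.40 between endoderm and epiblast, 0.27 between mesoderm and epiblast and 0.39 between endoderm and mesoderm. This is a measurement error within an array pair, not an error between embryos. Intensities are compared between layers for the same probe set only, since the brightness of different probe sets is not on a common scale.

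The study's marker genes followed their layers on these arrays except Pax6. Sox17 and Foxa2 had a joint intensity of 7417 in endoderm, 164 in mesoderm and 239 in epiblast. Foxf1 and Kdr came to 358 (endoderm), 3398 (mesoderm) and 444 (epiblast). Sox2 alone was 72.3 (endoderm), 130 (mesoderm) and 3032 (epiblast), while Pax6 was 181 (endoderm), 92.4 (mesoderm) and 121 (epiblast). Genes of the visceral endoderm, the absorptive outer epithelium of the embryo, were all above the floor in the endoderm array (8 of 8, summed intensity 51966, against 840 in mesoderm and 823 in epiblast). All 8 were also past 2-fold higher in endoderm than in either other layer. Of all genes above the floor, 12.5% were that much higher in endoderm than in epiblast and 11.4% than in mesoderm. Afp, Apob, Amn and Cubn passed the floor only through endoderm. They had to be highest there, so their calls are no support for the count. The parietal endoderm list was mixed. Of its 6 genes, 3 were higher and 1 was lower in endoderm than in epiblast, where 12.5% of all genes were higher and 4.01% lower. Against mesoderm 1 was higher and 2 were lower in endoderm, where the shares were 11.4% and 3.86%. Srgn (875 in endoderm, 60.4 in mesoderm, 57.4 in epiblast) passed the floor only through endoderm. Thbd (51.0 in endoderm, 137 in mesoderm, 41.7 in epiblast) did so only through mesoderm. Both had to be highest there, so their calls are no support for these counts. The summed intensity of the list (9041 in endoderm, 4617 in mesoderm, 2746 in epiblast) was carried mostly by Sparc, Lamb1 and Pth1r. Snai1 read 51.0 (endoderm), 289 (mesoderm) and 135 (epiblast). Of 5 decidual genes, 3 were above the floor, and the sum over all 5 (1905 in endoderm, 1554 in mesoderm, 238 in epiblast) was mostly Bmp2 in endoderm and Bmp2 with Hand2 in mesoderm, genes that are not particular to decidua. Of 9 trophoblast genes measured, 6 were above the floor. On the brightest probe sets 0 passed 2-fold between endoderm and epiblast, where 12.5% of all genes were higher and 4.01% lower. Between endoderm and mesoderm 1 did, Rhox6 at 119 and 46.6, which passed the floor only through endoderm. There 11.4% of all genes were higher and 3.86% lower. These counts depend on the probe set. Another of Tfap2c, past the floor only through epiblast, was 28.8 (endoderm), 63.0 (mesoderm) and 441 (epiblast). Another of Hand1 was 80.5 (endoderm), 477 (mesoderm) and 157 (epiblast). The largest part of the trophoblast sums (2215 in endoderm, 1905 in mesoderm, 2888 in epiblast) was Cdx2, at 1283 (endoderm), 932 (mesoderm) and 1817 (epiblast). The part of any of these genes in the endoderm values below was not tested. The 4 primitive red cell genes measured were below the floor in all layers, as were Elf5, a factor of the trophoblast, and Prl8a2, a decidual hormone gene. In these bulk samples, fewer cells of a type and less RNA per cell cannot be told apart.

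Of the 8 genes, 7 were above the floor and Dnmt3l was not. On the brightest probe sets, Dnmt3a and Dnmt3b differed most between layers, the maintenance genes Dnmt1 and Uhrf1 differed little, and the TET genes lay between. The place of the maintenance genes depends on the probe set. For endoderm against epiblast the second Uhrf1 probe set gave -0.74, where the brightest of Tet1 gave -0.64. Dnmt3a was 2.80-fold lower in endoderm than in epiblast, and Dnmt3b was 2.44-fold lower in mesoderm than in epiblast. These were the only members past 2-fold in any pair of layers. Taking all members above the floor, 6 of 7 had a negative log2 difference for endoderm against epiblast (median -0.41, with 0.05 over all genes), 5 of 7 for mesoderm against epiblast (-0.14, with -0.02), and likewise 6 of 7 for endoderm against mesoderm (-0.24, with 0.07). For endoderm against epiblast, 1 of 7 members was lower and 0 were higher, where 4.01% of the 12785 genes above the floor were lower and 12.5% higher. For mesoderm against epiblast, 1 of 7 was lower and 0 were higher, where 3.25% of genes were lower and 3.44% higher. For endoderm against mesoderm, 0 of 7 members passed in either direction, where 3.86% of genes were lower and 11.4% higher. The balance of the background depends on scaling, since 75.7% of the genes past 2-fold between endoderm and epiblast were higher in endoderm as deposited, but 64.3% with quantile normalization and 91.0% with centring on housekeeping genes. With so few members, counts of 0 or 1 are not far from these background shares, and what follows rests on the single genes.

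**Figure D1:**
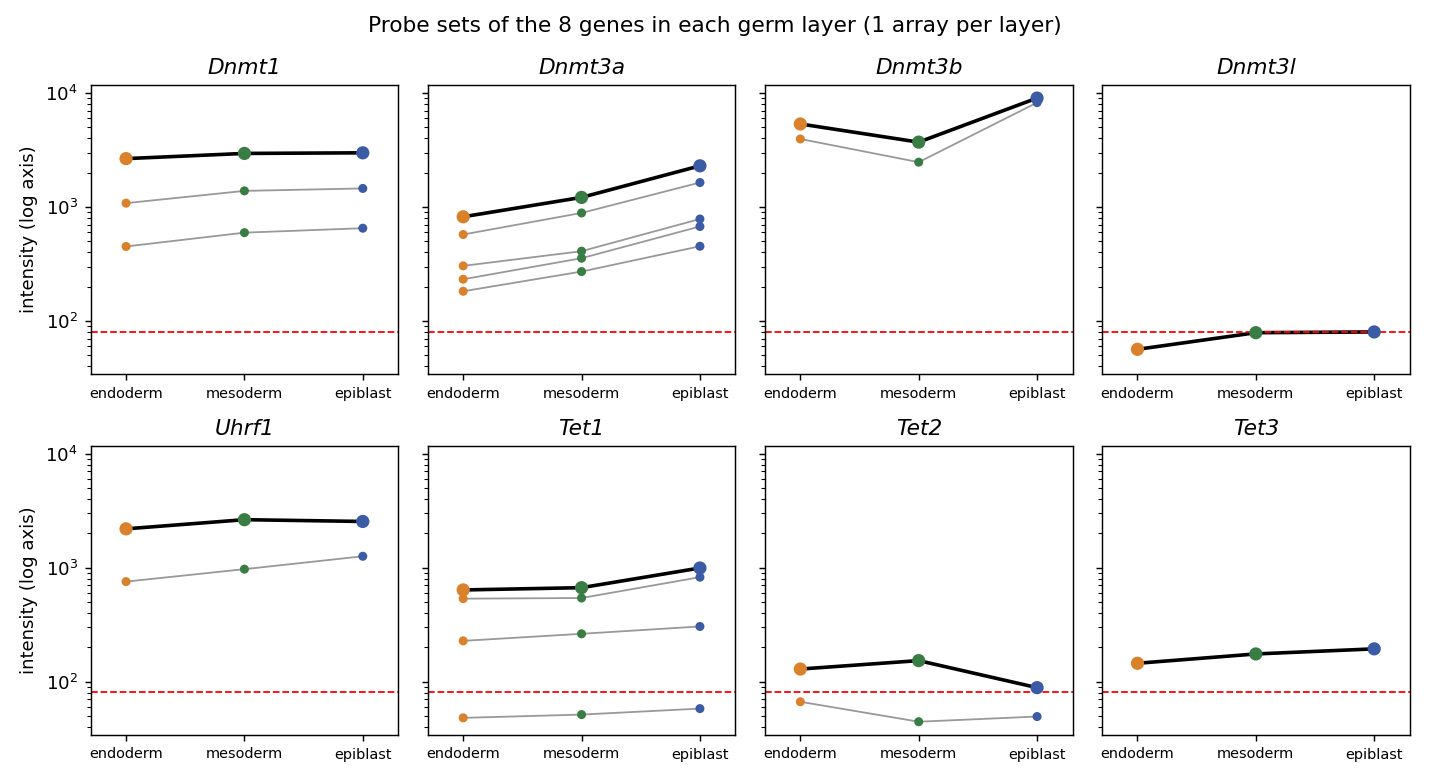
Intensity (log axis) of the 20 probe sets in endoderm, mesoderm and epiblast, 1 array per layer. The thick line is the probe set that stands for the gene, thin lines are its other probe sets, and the dashed line is the floor of 80.6. All 5 Dnmt3a and both Dnmt3b probe sets are highest in epiblast, but Dnmt3a is lowest in endoderm and Dnmt3b in mesoderm.

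Dnmt3a, which encodes a de novo methyltransferase, gave intensities of 820 in endoderm, 1213 in mesoderm and 2296 in epiblast. The levels were ordered epiblast, mesoderm, endoderm, with each step larger than the spread between probe sets. In endoderm, its other probe sets gave 573, 304, 232 and 182, in mesoderm 886, 409, 355 and 271, and in epiblast 1638, 784, 674 and 452, listed in the same probe set order. All 5 probe sets gave the same order although their brightness differed several-fold. For endoderm against epiblast the log2 difference was -1.49 on the brightest probe set and between -1.54 and -1.31 over the 5 (mean -1.44, SD 0.10), and all 5 were past 2-fold. Only 1.77% of the genes above the floor had a lower value in this comparison. Mesoderm against epiblast gave -0.92 (1.89-fold), with a range of -0.94 to -0.74 over the probe sets. None of the 5 reached 2-fold there, so Dnmt3a stood just inside the limit, with 3.75% of genes lower. Endoderm against mesoderm gave -0.56 (range -0.63 to -0.43), or 1.48-fold.

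Dnmt3b, the other de novo methyltransferase gene, read 5349 in endoderm, 3706 in mesoderm and 9027 in epiblast. Its second probe set was 3950 (endoderm), 2472 (mesoderm) and 8233 (epiblast). Both are of the kind that the manufacturer designs to match several transcripts of the same gene. The order was epiblast, endoderm, mesoderm on both, and each step was larger than the spread. Mesoderm against epiblast gave log2 differences of -1.28 and -1.74, which is 2.44-fold and 3.33-fold lower in mesoderm, and 2.23% of genes had a lower value than the first of these. Endoderm against epiblast gave -0.76 and -1.06. The call at 2-fold in this pair thus depends on the probe set, since the brightest gave 1.69-fold and the other 2.08-fold. For endoderm against mesoderm, Dnmt3b was higher in endoderm on both probe sets, by 0.53 and 0.68 on the log2 scale.

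The pair of de novo genes therefore placed endoderm and mesoderm in opposite orders. The endoderm minus mesoderm difference of Dnmt3b exceeded that of Dnmt3a by 1.09 on the log2 scale, a 2.13-fold shift in their relative intensity between these layers. Taking each of the 2 Dnmt3b probe sets with each of the 5 Dnmt3a probe sets, this quantity was positive in 10 of 10 combinations and lay between 0.96 and 1.31. Since it is a ratio within each array, a different overall scale of an array cannot alter it, though an intensity-dependent step can. Under all scalings tried, Dnmt3a remained lower in endoderm than in mesoderm (-0.81 to -0.30) and Dnmt3b remained higher (0.37 to 0.79). The corresponding quantity was 0.73 for endoderm against epiblast, with a wide range of 0.25 to 0.78 over the 10 combinations. It was -0.36 for mesoderm against epiblast, with a range of -1.0 to -0.35. In both pairs the size thus depends on the probe sets taken. The visceral endoderm genes given above had summed intensities of 51966 (endoderm), 840 (mesoderm) and 823 (epiblast). That was the order of neither de novo gene, since both were highest in epiblast. Of 9 pluripotency and epiblast genes, 8 were above the floor. Of these, 2 were lower and 0 higher in endoderm than in epiblast, where 4.01% of all genes were lower and 12.5% higher. In mesoderm 6 were lower and 0 higher than in epiblast, where 3.25% of all genes were lower and 3.44% higher. The summed intensity of the 9, of which Pou5f1 was the largest part in epiblast, came to 5787 (endoderm), 5167 (mesoderm) and 12805 (epiblast). Pou5f1 was 1019 (endoderm), 2159 (mesoderm) and 5735 (epiblast), in the order of Dnmt3a, and Nanog was 173 (endoderm), 81.3 (mesoderm) and 830 (epiblast), in the order of Dnmt3b. L1td1 was 1336 (endoderm), 259 (mesoderm) and 1964 (epiblast) and Otx2 was 1467 (endoderm), 920 (mesoderm) and 1985 (epiblast), both also in the order of Dnmt3b. Utf1 shared this order at 578 (endoderm), 520 (mesoderm) and 1102 (epiblast), with endoderm and mesoderm close. The rest above the floor followed neither gene. Fgf5 was 476 (endoderm), 120 (mesoderm) and 360 (epiblast), and Tdgf1 was 411 (endoderm), 865 (mesoderm) and 559 (epiblast). Dppa5a was 269 (endoderm), 177 (mesoderm) and 194 (epiblast). The part of these genes in the result was not tested.

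**Figure D2:**
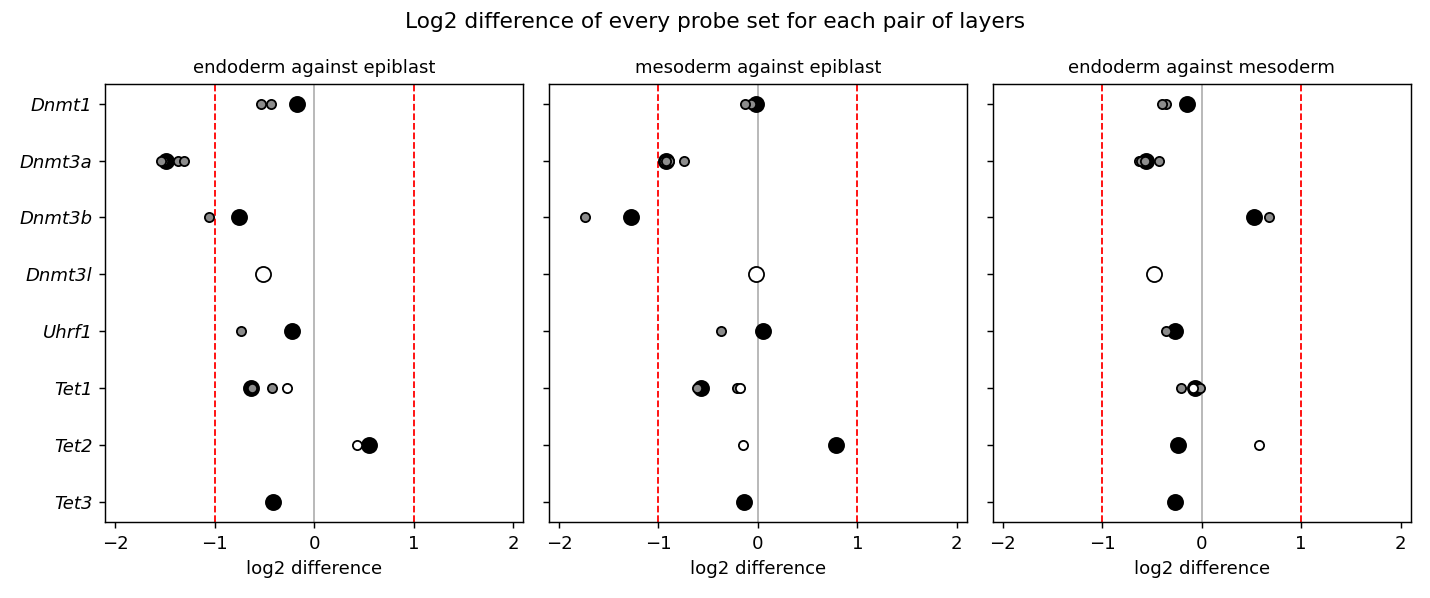
Log2 difference of each probe set for the 3 pairs of layers, where negative values are lower in the layer named at the start and dashed lines mark 2-fold. Large black points stand for the gene, small grey points are its other probe sets, and open points were below the floor in all layers. For endoderm against mesoderm, the Dnmt3a points lie at -0.63 to -0.43 and the Dnmt3b points at 0.53 and 0.68.

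Promoter sequences of the de novo genes are shown with that of Dnmt3l because their products act on CG dinucleotides, which are many in the windows of Dnmt3a and Dnmt3b and few in those of Dnmt3l. Each window is 300 bases from RefSeq (mouse build GRCm38.p6), 250 before and 50 after a transcript start, written along the gene with CG in capitals. All 8 genes were matched, with 15 windows in all. The Dnmt3b window (chr2:153649199-153649498, + strand) held 30 CG, more than 88.3% of the 32851 windows of all genes, whose median was 7. The second of the 3 Dnmt3a windows (chr12:3806910-3807209, + strand) held 47, more than 98.6% of windows. The first Dnmt3l window (chr10:78042037-78042336, + strand) held 6.
Dnmt3b: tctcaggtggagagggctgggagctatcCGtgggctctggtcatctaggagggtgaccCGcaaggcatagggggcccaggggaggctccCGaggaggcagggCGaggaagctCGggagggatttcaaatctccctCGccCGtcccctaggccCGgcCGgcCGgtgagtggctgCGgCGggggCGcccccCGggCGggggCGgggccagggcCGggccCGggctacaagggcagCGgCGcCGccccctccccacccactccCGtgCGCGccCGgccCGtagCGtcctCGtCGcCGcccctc
Dnmt3a: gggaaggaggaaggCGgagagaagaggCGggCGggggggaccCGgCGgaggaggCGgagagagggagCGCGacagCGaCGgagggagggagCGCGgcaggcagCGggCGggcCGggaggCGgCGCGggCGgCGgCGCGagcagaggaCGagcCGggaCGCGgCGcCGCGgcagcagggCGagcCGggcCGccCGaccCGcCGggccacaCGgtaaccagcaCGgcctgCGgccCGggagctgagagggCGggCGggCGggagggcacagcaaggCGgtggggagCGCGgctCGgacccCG
Dnmt3l: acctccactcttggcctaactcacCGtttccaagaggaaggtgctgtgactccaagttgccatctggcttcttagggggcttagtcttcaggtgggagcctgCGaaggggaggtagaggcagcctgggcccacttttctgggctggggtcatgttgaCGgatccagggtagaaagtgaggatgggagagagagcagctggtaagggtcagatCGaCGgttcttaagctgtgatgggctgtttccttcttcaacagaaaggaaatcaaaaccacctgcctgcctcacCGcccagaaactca
The other Dnmt3a windows held 46 (it overlaps the window shown) and 18, the second of these at a start farther into the gene at chr12:3891494-3891793. The other Dnmt3l windows held 4 and 3. The single windows of Tet1, Tet2 and Tet3 held 17, 57 and 22. The letters GGGCGG, a GC box read on both strands, were present in 12 of the 15 windows and in 35.7% of all windows. Which start site was in use in each layer cannot be read from these arrays, and no methylation was measured.

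Dnmt3l, the cofactor gene known for its role in the germ line and in extra-embryonic tissue, had values of 56.3 in endoderm, 78.8 in mesoderm and 80.0 in epiblast on its only probe set. All 3 values were below the floor, so no fold is given. Prdm14 and Dppa3, germ cell genes that act on this pathway in the mouse, were also below or at the floor, at 71.6 (endoderm), 76.1 (mesoderm) and 80.6 (epiblast) and at 53.9 (endoderm), 41.8 (mesoderm) and 56.1 (epiblast).

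Dnmt1, the maintenance methyltransferase gene, gave intensities of 2656 in endoderm, 2950 in mesoderm and 2986 in epiblast. On the brightest probe set as deposited, no step between layers was larger than the spread. The log2 difference was -0.17 between endoderm and epiblast, -0.02 between mesoderm and epiblast and -0.15 between endoderm and mesoderm, and all 3 values turned positive (0.22, 0.11 and 0.11) when the arrays were centred on housekeeping genes. The dimmer probe sets of Dnmt1, at 1080 (endoderm), 1384 (mesoderm) and 1454 (epiblast) and at 450 (endoderm), 595 (mesoderm) and 651 (epiblast), gave lower values for endoderm against epiblast, -0.43 and -0.53. Both are of the kind that may also bind other transcripts, as the _x_at suffix of their names marks. Only 15.2% of genes above the floor varied less over the layers than the brightest Dnmt1 probe set.

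Uhrf1, whose product recruits DNMT1 to replicating DNA, read 2193 in endoderm, 2639 in mesoderm and 2546 in epiblast. Endoderm minus epiblast was -0.22 in log2 (0.17 with housekeeping centring), mesoderm minus epiblast 0.05 and endoderm minus mesoderm -0.27, all within the spread as deposited. With quantile normalization endoderm minus epiblast was -0.47 and endoderm minus mesoderm -0.50, both larger than the spread. The second Uhrf1 probe set was 755 (endoderm), 971 (mesoderm) and 1260 (epiblast) and placed epiblast highest. It gave -0.74 for endoderm against epiblast and -0.37 for mesoderm against epiblast, both larger than the spread. The mean of both probe sets was -0.16 for mesoderm against epiblast, where the brightest alone was 0.05. The order of mesoderm and epiblast for Uhrf1 thus depends on the probe set, while endoderm was lowest on both.

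Dnmt1 and Uhrf1 also share letters in their promoter windows. The sequence TTTCGCGC, a form of the site bound by E2F factors that act on genes of DNA replication, was searched on both strands after the windows had been seen. It was present in the third Dnmt1 window (chr9:20952574-20952873, - strand) and the second Uhrf1 window (chr17:56304063-56304362, + strand), in 0 of the other 13 member windows and in 0.323% of all windows (106 of 32851). Of the 16 DNA replication genes with a window, 4 held it. The motif is in capitals.
Dnmt1: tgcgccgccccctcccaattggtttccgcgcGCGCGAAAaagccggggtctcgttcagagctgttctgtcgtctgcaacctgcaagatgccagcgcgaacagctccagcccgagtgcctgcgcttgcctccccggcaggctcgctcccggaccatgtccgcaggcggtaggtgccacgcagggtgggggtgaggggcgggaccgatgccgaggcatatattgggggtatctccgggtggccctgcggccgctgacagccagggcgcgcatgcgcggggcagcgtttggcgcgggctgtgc
Uhrf1: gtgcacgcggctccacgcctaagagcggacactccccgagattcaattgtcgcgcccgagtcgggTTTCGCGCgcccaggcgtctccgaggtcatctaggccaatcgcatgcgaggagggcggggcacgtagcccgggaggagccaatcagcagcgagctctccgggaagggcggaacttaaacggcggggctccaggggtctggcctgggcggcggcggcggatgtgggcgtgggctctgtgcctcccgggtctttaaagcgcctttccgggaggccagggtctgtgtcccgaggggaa
A match of letters is a description of the window and was not tested as a binding site. On the arrays, the 21 genes of DNA replication stayed within 2-fold in every pair of layers. Of all genes, 12.5% were higher and 4.01% lower for endoderm against epiblast, and 3.44% and 3.25% for mesoderm against epiblast. For endoderm against mesoderm the shares were 11.4% and 3.86%. The median log2 difference of the 21 genes was -0.38 for endoderm against epiblast and -0.15 for mesoderm against epiblast. The medians of all genes were 0.05 and -0.02. Mcm6, a subunit of the replicative helicase, had values of 3802 in endoderm, 4343 in mesoderm and 4543 in epiblast. Its difference of -0.26 for endoderm against epiblast was smaller in size than the list median. Over the list this difference ran from -0.94 (Rfc3) to 0.18 (Gins2), and 20 of the 21 genes were lower in endoderm.

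Tet1, which encodes the TET enzyme of pluripotent cells, gave intensities of 638 in endoderm, 668 in mesoderm and 994 in epiblast. A second probe set gave nearly the same pattern at 535 (endoderm), 542 (mesoderm) and 826 (epiblast). Tet1 was thus highest in epiblast and close to level between endoderm and mesoderm. The log2 difference was -0.64 for endoderm against epiblast (1.56-fold) and -0.57 for mesoderm against epiblast (1.49-fold), both larger than the spread but within 2-fold, with 7.99% and 6.55% of genes lower. Endoderm against mesoderm gave -0.07, and 0.19 with housekeeping centring. Another probe set was flatter, at 228 (endoderm), 263 (mesoderm) and 305 (epiblast), and the fourth was below the floor at 48.1 (endoderm), 51.4 (mesoderm) and 58.0 (epiblast). All 4 had epiblast highest and endoderm lowest.

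Tet2 differed from the rest in having its lowest value in epiblast. It read 129 in endoderm, 153 in mesoderm and 88.6 in epiblast, which is within 2-fold of the floor in every layer. The log2 difference was 0.79 for mesoderm against epiblast (1.73-fold), with 95.5% of genes lower, and 0.55 for endoderm against epiblast (1.46-fold). Endoderm and mesoderm differed by less than the spread (-0.24, and 0.02 with housekeeping centring). The second Tet2 probe set was below the floor everywhere, at 66.6 (endoderm), 44.5 (mesoderm) and 49.4 (epiblast), and did not repeat the mesoderm value. Tet3, which in the mouse is known for oxidising the paternal genome of the zygote, had values of 145 in endoderm, 175 in mesoderm and 194 in epiblast on its only probe set. Neighbouring levels of Tet3 differed by less than the spread, with -0.14 between mesoderm and epiblast and -0.27 between endoderm and mesoderm, and the ends, endoderm and epiblast, differed by -0.41, about the size of the spread. Tet1 and Tet2 hence ordered epiblast and the other layers in opposite ways, a contrast that rests on 1 dim probe set for Tet2.

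**Figure D3:**
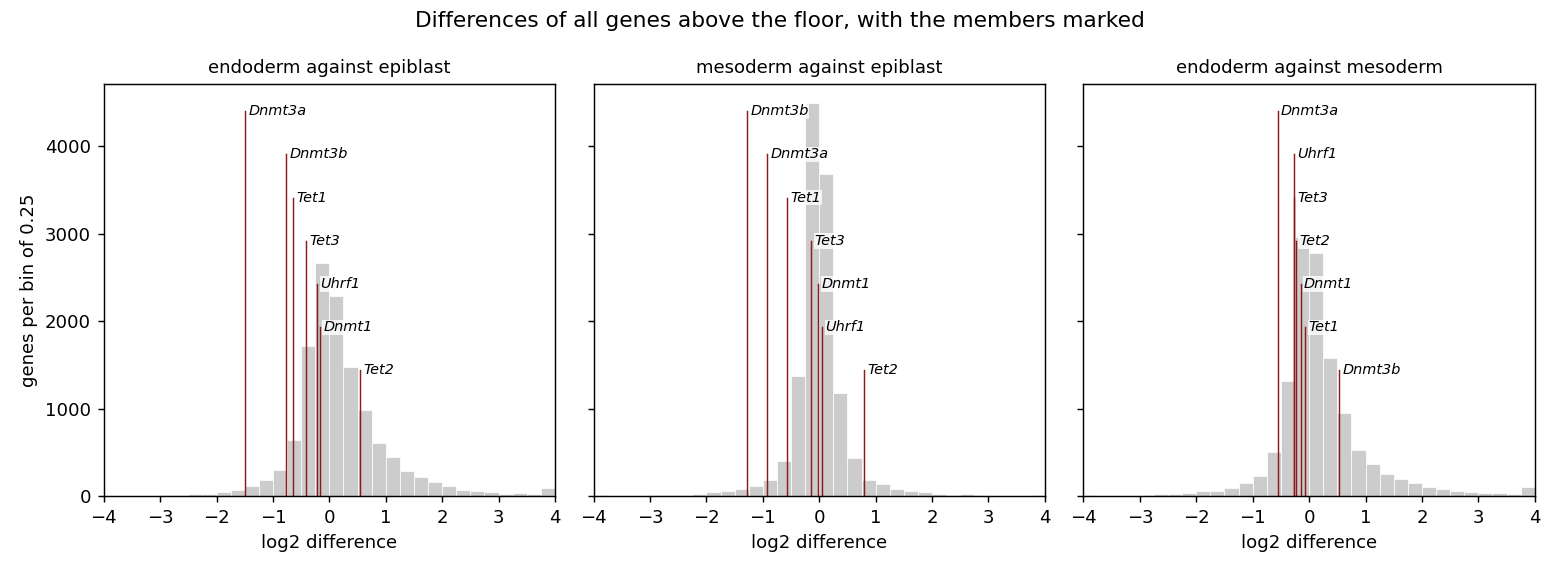
Number of genes above the floor (12785) per bin of log2 difference for each pair of layers, in grey, with the 7 members above the floor as marked lines whose heights have no meaning. The end bins also hold genes beyond the axis. Dnmt3a at -1.49 and Dnmt3b at -1.28 lie in the lower tails, while Dnmt1 and Uhrf1 lie near the centre.

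The genes with the pattern most like Dnmt3a over the 3 layers were Adam23, Thy1 and Cntfr, with a root mean square difference of 0.015, 0.018 and 0.025 in centred log2. Thy1 gave intensities of 93.2 in endoderm, 136 in mesoderm and 266 in epiblast. Adam23, at 48.9 (endoderm), 72.9 (mesoderm) and 135 (epiblast), passed the floor only through epiblast. It had to be highest there, so its order is no support for a likeness. Cntfr was 70.4 (endoderm), 107 (mesoderm) and 205 (epiblast), below the floor in endoderm. For Dnmt3b they were Aff1, Crip2 and Zfp467 (0.018, 0.033 and 0.035), and Aff1 was 472 (endoderm), 336 (mesoderm) and 798 (epiblast). The comparison ran over 2743 genes with a range of at least 2-fold and used only 3 values a gene, so 26 genes came within 0.1 of Dnmt3a and 18 within 0.1 of Dnmt3b.

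The lists that follow hold other genes of the pathway, and a gene counts as measured where it has a probe set of its own. Among 12 genes for maintenance, all measured, 11 were above the floor. Of these, 0 passed 2-fold for mesoderm against epiblast, where 3.44% of all genes were higher and 3.25% lower. For endoderm against epiblast 2 were lower and 0 higher, where 4.01% of all genes were lower and 12.5% higher. The 2 were Cdca7, which targets the remodeller HELLS, at 1108 (endoderm), 1715 (mesoderm) and 2382 (epiblast), and its relative Cdca7l at 361 (endoderm), 497 (mesoderm) and 769 (epiblast). Hells itself was 1865 (endoderm), 2471 (mesoderm) and 3157 (epiblast), in the order of Dnmt3a, though its dimmest probe set had mesoderm highest. Of 21 genes that guide de novo methylation, 20 were above the floor and 0 passed 2-fold in any pair. Of all genes, 12.5% were higher and 4.01% lower for endoderm against epiblast, and 3.44% and 3.25% for mesoderm against epiblast. For endoderm against mesoderm the shares were 11.4% and 3.86%. A count of 0 is not far from the shares for mesoderm against epiblast. Trim28, the corepressor that holds imprints, read 5659 in endoderm, 6399 in mesoderm and 6977 in epiblast. Among 14 partners of TET enzymes, 12 were above the floor, and Cxxc4, whose product binds TET2, was 60.8 (endoderm), 202 (mesoderm) and 74.3 (epiblast), at least 2.51-fold higher in mesoderm than in epiblast and at least 2.51-fold lower in endoderm than in mesoderm. Another Cxxc4 probe set was 27.6 (endoderm), 88.2 (mesoderm) and 36.9 (epiblast), and the last was below the floor throughout. Both Cxxc4 probe sets that passed the floor did so only through mesoderm. They had to be highest there, so their order is no support for a difference. Gadd45g was 2.28-fold higher in mesoderm than in epiblast, at 186 and 81.5. In base excision repair, 14 of 17 genes had a probe set of their own and 12 were above the floor. Apobec3 was 2.51-fold lower in endoderm than in epiblast (104 and 261), and Neil1 was 2.23-fold higher in endoderm than in mesoderm (182 and 81.5).

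Of 9 readers of methylated CG, 7 were measured, 6 were above the floor and only Mbd2 passed 2-fold. Its brightest probe set had values of 824 in endoderm, 241 in mesoderm and 106 in epiblast, but the other was level at 184 (endoderm), 176 (mesoderm) and 184 (epiblast), so the Mbd2 call rests on 1 probe set. In the supply of methyl groups, 19 of 22 genes were measured and 16 were above the floor. For endoderm against epiblast 3 were higher and 2 lower, where 12.5% of all genes were higher and 4.01% lower. For mesoderm against epiblast 0 were higher and 2 lower, where 3.44% of all genes were higher and 3.25% lower. Gldc, of the glycine cleavage system, was 4367 (endoderm), 322 (mesoderm) and 1429 (epiblast). Bhmt2, a homocysteine methyltransferase gene, was 420 (endoderm), 48.1 (mesoderm) and 41.6 (epiblast), so the endoderm value was higher than that of epiblast by at least 5.21-fold. It passed the floor only through endoderm, so it had to differ and is no support for the count of 3. Cbs, which drains homocysteine, was 94.2 (endoderm), 78.2 (mesoderm) and 259 (epiblast) and was lower in both other layers than in epiblast, by 2.75-fold in endoderm and at least 3.21-fold in mesoderm, although its second probe set was nearly level at 107 (endoderm), 100 (mesoderm) and 125 (epiblast). Ahcyl2, a relative of the adenosylhomocysteinase gene, had 1407 (endoderm), 557 (mesoderm) and 679 (epiblast), but its other probe sets, at 170 (endoderm), 213 (mesoderm) and 188 (epiblast) and at 155 (endoderm), 97.0 (mesoderm) and 108 (epiblast), did not pass 2-fold, so its call rests on 1 of 3. Mthfd2, of mitochondrial folate metabolism, was lower in endoderm than in epiblast at 451 and 924.

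Germline genes, many of which are kept silent in somatic cells by promoter methylation, were mostly dim. Of 22 entries, 20 were measured and 8 were above the floor. Of the 8, 5 were higher in endoderm than in epiblast and 1 was lower, while 0 passed 2-fold for mesoderm against epiblast. The background was 12.5% of all genes higher and 4.01% lower in the endoderm pair, and 3.44% higher and 3.25% lower in the mesoderm pair. Rhox5 was 3726 (endoderm), 403 (mesoderm) and 367 (epiblast), Ddx4 was 355 (endoderm), 132 (mesoderm) and 81.2 (epiblast), and Zfp42, a pluripotency gene on this list, was 164 (endoderm), 82.8 (mesoderm) and 57.2 (epiblast). Tex19.1 (389 in endoderm, 47.7 in mesoderm, 46.8 in epiblast) and Slc25a31 (126 in endoderm, 37.4 in mesoderm, 36.8 in epiblast) passed the floor only through endoderm, so they had to differ and their calls are no support for the count. For Slc25a31 the bound was only at least 1.56-fold. Sycp3 went the other way at 182 (endoderm), 304 (mesoderm) and 446 (epiblast). Visceral endoderm genes had a summed intensity of 51966 in the endoderm array, as given above, and their part in these values was not tested. Among imprinted genes with a methylated control region, 19 of 24 entries were measured, and 7 were higher and 3 lower in endoderm than in epiblast, with 7 higher and 1 lower in mesoderm than in epiblast. Of all genes, 12.5% were higher and 4.01% lower in the endoderm pair, and 3.44% higher and 3.25% lower in the mesoderm pair. Dlk1 and Cdkn1c were among the genes higher in both endoderm and mesoderm than in epiblast. Peg10 was 201 (endoderm), 99.8 (mesoderm) and 22.1 (epiblast), and its epiblast value lay below the floor, so the bound was at least 2.50-fold in endoderm but only at least 1.24-fold in mesoderm. Igf2 had the largest range of the list, at 5712 (endoderm), 3421 (mesoderm) and 340 (epiblast). Its other probe set was far dimmer, with a smaller difference, at 143 (endoderm), 111 (mesoderm) and 51.5 (epiblast). Snrpn went the other way at 111 (endoderm), 189 (mesoderm) and 410 (epiblast).

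**Figure D4:**
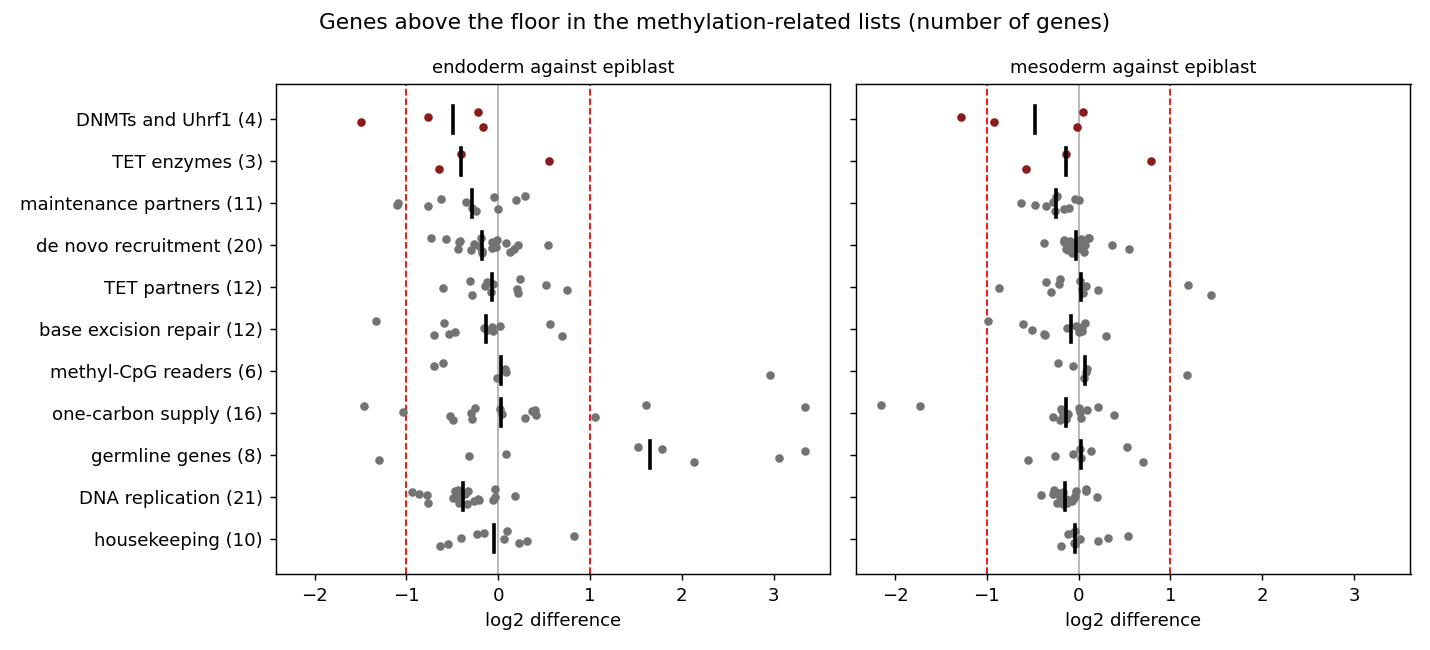
Log2 difference of each gene above the floor in 11 lists (number of genes in brackets), for endoderm against epiblast (left) and mesoderm against epiblast (right), with list medians as black bars, 2-fold as dashed lines and the members in red. DNA replication and housekeeping genes all stay within 2-fold, and the germline genes reach 3.34 in endoderm. Of all genes, 12.5% were past 2-fold higher and 4.01% lower in endoderm than in epiblast, with 3.44% and 3.25% for mesoderm.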

How the data were processed

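Arrays of the endoderm, the mesoderm and the epiblast (1 each) were analysed. After scanning with the manufacturer's console, the authors used RMA for background correction and normalization, then the affy package for expression values. The deposited intensity values are linear, with a minimum of 1, and array medians of 79.9, 79.9 and 82.2. Software versions and any later rescaling are not stated in what was read here, and could alter differences at low intensity. The values carry no depth or detection call, and the number of arrays limits their precision.

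Of 45037 probe sets, 34945 had 1 gene symbol, 932 had several and 9160 were unnamed in the platform annotation. Those with several or none were left out, Tdg among them. Layers were compared by subtracting log2 intensities (Python 3.11.15, pandas 2.3.3). A lower value under the floor gives "at least N-fold", with that value raised to the floor. The methods' test for arrays, Significance Analysis of Microarrays, needs replicates and was not run. The calling step was tested on simulated data. Alternatives were a floor at the 75th percentile, values raised to the floor, 1.5-fold and 3-fold limits, quantile, cyclic loess (limma 3.58.1) and housekeeping scaling (10 genes), a pseudocount of 50, and 2 other ways to pick probe sets. Text names all 8 members, list genes past 2-fold with the largest ranges or going against their list, and the 3 genes most like each called member. Trim28, Hells, Mcm6, Prdm14, Dppa3, Pou5f1, Nanog, L1td1, Otx2, Utf1, Fgf5, Tdgf1, Dppa5a and Snai1 were named after their values were seen. So were Rfc3, Gins2, Afp, Apob, Amn, Cubn, Srgn, Thbd, Tfap2c and Hand1. Members, lists and the rule were chosen with earlier results of these data known. Probe set positions were not used here.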

Additional observations from a re-analysis of the deposited data

How the results depend on the processing

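The calls of Dnmt3a (endoderm against epiblast) and Dnmt3b (mesoderm against epiblast) were made under every alternative except the 3-fold limit, under which 0 members were called in either pair. With a 1.5-fold limit, 3 members were called for endoderm against epiblast (Dnmt3a, Dnmt3b and Tet1) and 3 for mesoderm against epiblast (Dnmt3a, Dnmt3b and Tet2). For endoderm against mesoderm the count was 0 throughout. Of 168 log2 differences of single members over 7 alternatives, 166 moved by less than the spread between probe sets, and the 2 others were Dnmt3l, whose values become equal when raised to the floor. No called difference changed sign, and 10 uncalled ones did, 7 of them with housekeeping centring. That centring raised the median difference of all genes to 0.45 for endoderm against epiblast, in place of 0.05, and to 0.34 for endoderm against mesoderm, in place of 0.07, and to 0.11 for mesoderm against epiblast, in place of -0.02. Quantile normalization moved the first pair to -0.11 and the second to -0.08. With housekeeping centring Dnmt3a was -1.10 for endoderm against epiblast. The share of higher genes among those past 2-fold for endoderm against epiblast was 75.7% as deposited, 64.3% with quantile normalization and 91.0% with housekeeping centring, and for endoderm against mesoderm 74.7%, 65.9% and 85.9%. Counts of all genes past 2-fold moved by over 1.5 times in these cases. For endoderm against epiblast, 1598 higher and 513 lower became 2724 and 270 with housekeeping centring, 2798 and 1168 at 1.5-fold and 774 and 182 at 3-fold, and 325 were lower with either the 75th percentile floor or the pseudocount. For mesoderm against epiblast, 440 higher and 415 lower became 864 and 816 at 1.5-fold, 181 and 193 at 3-fold and 290 and 271 with the pseudocount, and 266 were lower with the 75th percentile floor. For endoderm against mesoderm, 1458 higher and 493 lower became 2583 and 1014 at 1.5-fold and 767 and 220 at 3-fold. With the floor at the 75th percentile, 5 members were above it, without Tet2 and Tet3. No paired analysis was possible because each layer had 1 array. Dim signal limits what can be said of Dnmt3l, Tet2 and Tet3.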
